A study of Caenorhabditis elegans with 2 samples.

Results

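The genes described here are the worm homeobox genes named ceh (C. elegans homeobox) together with the Hox genes lin-39, mab-5, egl-5, nob-1 and php-3, and the question is where LIN-35 was found at them in first-stage larvae. They were chosen by name from the protein-coding genes of the WBcel235 annotation: 63 have a name that starts with ceh- and 5 are the Hox genes with other names, 68 of 19973 protein-coding genes in all. A LIN-35 peak was assigned to a gene when its summit lay within 500 bp of the gene's annotated 5′ end (its start) or inside the gene. The rule for the genes uses names and no binding value, though it was chosen with earlier results of these data known.

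Homeobox genes encode transcription factors that bind DNA through a homeodomain, and many of them specify cell type and position in the embryo and larva. The Hox genes are the subset that gives cells their place along the head to tail axis. In the worm, ceh-13 is the anterior (labial type) Hox gene, lin-39 acts in the midbody including the vulva, mab-5 in the posterior body, and egl-5, nob-1 and php-3 (Abdominal-B type) in the tail. LIN-35 is the counterpart of the retinoblastoma protein in C. elegans and a subunit of the DREAM complex, which represses transcription of cell cycle and germline genes.

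LIN-35 was mapped by chromatin immunoprecipitation with sequencing (ChIP-seq) in 1 group of 2 biological replicates. All larvae were whole, mixed-sex L1 animals of strain YL409, unc-119(ed3) on chromosome III with the transgene vrIs60, which makes LIN-35 fused to GFP and FLAG under the lin-35 promoter and 3′ UTR and carries a working unc-119. The genotype names no lesion in the endogenous lin-35 gene, and no untagged strain or other stage was analysed here. The DNA was sized at 150 to 350 bp. The antibody label names lin-35, while the sample description reads ChIP-seq against eGFP-lin-35, and which antibody was used is not stated. There was therefore no comparison between groups and no test of one, and the values below are the place of each peak and its deposited signal, with each replicate given beside the pooled list. In whole larvae, weak binding in all cells and strong binding in a few cannot be told apart, and the lists hold no expression values with which the larval tissue could be checked against marker genes.

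The values come from 4 lists. The pooled list of both replicates holds 30000 peaks, weak ones included, with signals from 9.22 to 3457. The 3838 strongest of them, from a signal of 56.0 upward, form the list kept by the authors after filtering on the irreproducible discovery rate (IDR), which scores how alike peaks rank in both replicates. Membership thus follows pooled signal, and a single peak in the list need not rank alike in both replicates. Replicate 1 holds 23835 nuclear peaks (signals from 2.00 to 959) and replicate 2 holds 30000 (6.96 to 2511). The signal scale differs between lists, so a peak's place in a list is given as its rank, with 1 the strongest. Read depth is unknown.

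The sequences shown first are from 5 IDR peaks at or upstream of these genes that hold, within 100 bp of the summit, one of 2 motifs tied to DREAM. The E2F motif was searched in 4 forms, which were TTCCCGC and then TTCGCGC and then TTGCCGC and then TTGGCGC. The cell cycle genes homology region (CHR) motif was searched as TTTGAA and also as TTCGAA, and both motifs on either strand. Each is 30 bases of the WBcel235 (ce11) genome from RefSeq, read 5′ to 3′ on the strand of the gene, with the motif in capitals. Where the capitals differ from the forms listed, they are the reverse complement of one. The ceh-39 motif lay 61 bp from the summit, the ceh-83 motif 34 bp, the ceh-58 motif 83 bp, the ceh-20 motif 56 bp and the ceh-48 motif 58 bp. The ceh-39 and ceh-58 peaks each held 1 E2F and 1 CHR motif in that window, of which the E2F motif is shown. The ceh-8 peak also held an E2F motif, and its sequence is not shown. The windows were chosen because they hold a motif. Those of ceh-58, ceh-20 and ceh-48 are from upstream peaks that were not assigned to the genes. Motifs at the other upstream IDR peaks are not given here. Over all IDR peaks, 18.3% had an E2F motif and 43.3% a CHR motif within 100 bp of the summit.
ceh-39, E2F, chrX:1856373-1856402, minus strand: attccccccttTTCCCGCccgaaatttacg
ceh-83, E2F, chrII:1736495-1736524, minus strand: tgtgagaacgcGCGCGAAcgctgtaatcga
ceh-58, E2F, chrII:10370916-10370945, minus strand: ctaaacacacaGCGGCAAttaactaatcgc
ceh-20, CHR, chrIII:6979107-6979136, plus strand: tttctctgttgtTTCGAAggaaccgctacg
ceh-48, CHR, chrIV:6809959-6809988, plus strand: tttgtgcacagcTTCAAAgcctaaatagac

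Few of these genes carried a LIN-35 peak that passed the IDR threshold. They were ceh-38, ceh-39, ceh-74, ceh-8 and ceh-83, 5 of 68 (7.35%), where 16% of all protein-coding genes had one by the same assignment. At the start alone the count was 4 of 68 (5.88%), against 13.6% of all genes. Each of the 5 genes had a single IDR peak. None of the 6 Hox genes was among them.

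The strongest of the 5 peaks lay at the start of ceh-38, a CUT-class (ONECUT) homeobox gene (WBGene00000459, chromosome II, 6951526 to 6955409, plus strand). The peak spanned 6951433 to 6951702 and its summit fell 56 bp downstream of the annotated start, in the 5′ UTR. Its signal was 437 in the pooled list (rank 485), 136 in replicate 1 (rank 433) and 295 in replicate 2 (rank 512), so it stood high in both replicates, with summits 16 and 8 bp from the pooled one. The divergent neighbour malt-1, ortholog of the human paracaspase MALT1, starts on the other strand with the same summit 282 bp upstream of it, so the peak cannot be given to ceh-38 alone, although ceh-38 has the nearer start. Neither an E2F nor a CHR motif lay within 100 bp of the summit.

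The second peak belonged to another CUT-class gene, ceh-39, an X-linked signal element that takes part in counting X chromosomes for sex determination (WBGene00000460, chromosome X, 1853874 to 1856172, minus strand). The peak spanned 1856214 to 1856421, between protein-coding genes, with its summit 155 bp upstream of the start. Its signal was 218 pooled (rank 1088), 64.6 in replicate 1 (rank 939) and 156 in replicate 2 (rank 1091), again close in rank. No other protein-coding gene starts within 500 bp, but the non-coding RNA gene T26C11.10 starts on the other strand with the summit 146 bp upstream of it. The peak had the E2F sequence printed above and, within 100 bp of its summit, 1 CHR motif.

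On X, ceh-39 is followed on the same strand by T26C11.9 and then by the CUT genes ceh-21 and ceh-41, which lie 103 bp apart. A second IDR peak fell 63 bp inside T26C11.9, between ceh-39 and ceh-21 (chromosome X, 1853709 to 1853825, signal 102, pooled rank 2344, ranks 3305 and 2478 in replicates 1 and 2). It was 1050 bp from the start of ceh-21 and was not assigned to it. The only pooled peak in ceh-21 itself was among the weakest of the list (signal 9.41, rank 29271) and overlapped no peak of either replicate. ceh-41 had no pooled peak and 1 peak in replicate 2 alone (signal 9.03, rank 21370). A further IDR peak lay 2579 bp upstream of ceh-39 (signal 78.1, rank 2938).

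ceh-74 (WBGene00013876, chromosome V, 14178079 to 14179628, plus strand) carried a narrow peak at 14177851 to 14177931, with its summit 190 bp upstream of the start. Its signal was 87.5 pooled (rank 2678), 27.1 in replicate 1 (rank 2150) and 51.1 in replicate 2 (rank 3236), with the summits of all lists within 1 bp. ceh-74 lies whole inside an annotated gene of the opposite strand, cest-2.3, so this summit counts as intronic to cest-2.3, 5071 bp from the start of that gene. No E2F or CHR motif lay within 100 bp.

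The other two IDR peaks ranked high in replicate 2 but not in replicate 1. The ceh-83 peak (WBGene00018446, chromosome II, 1736382 to 1736705) had its summit 11 bp upstream of the start, a signal of 57.1 and a rank of 3775, just inside the threshold. It ranked 3520 in replicate 2 (signal 46.1) but 13734 in replicate 1 (signal 4.06). The ceh-8 peak (WBGene00000433, chromosome I, 8245618 to 8245711, signal 75.0, rank 3043) ranked 2508 in replicate 2 (signal 68.4), with no overlapping peak in replicate 1. ceh-8 is the worm ortholog of the retinal homeobox (Rx) genes, and its summit did not lie at its promoter: it fell in the 3′ UTR, 5278 bp downstream of the start of a gene of 5444 bp, and 48 bp upstream of the non-coding RNA gene ZK265.11. Replicate 1 did have 2 weaker peaks assigned to ceh-8, the stronger at rank 10041 (signal 5.41), 5048 bp downstream of the start. Taking the 3838 strongest peaks of replicate 1 alone left ceh-38, ceh-39 and ceh-74 (15.7% of all genes were called that way). The strongest peaks of replicate 2 alone gave all 5 genes and ceh-88 (16.1% of all genes).

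**Figure D1:**
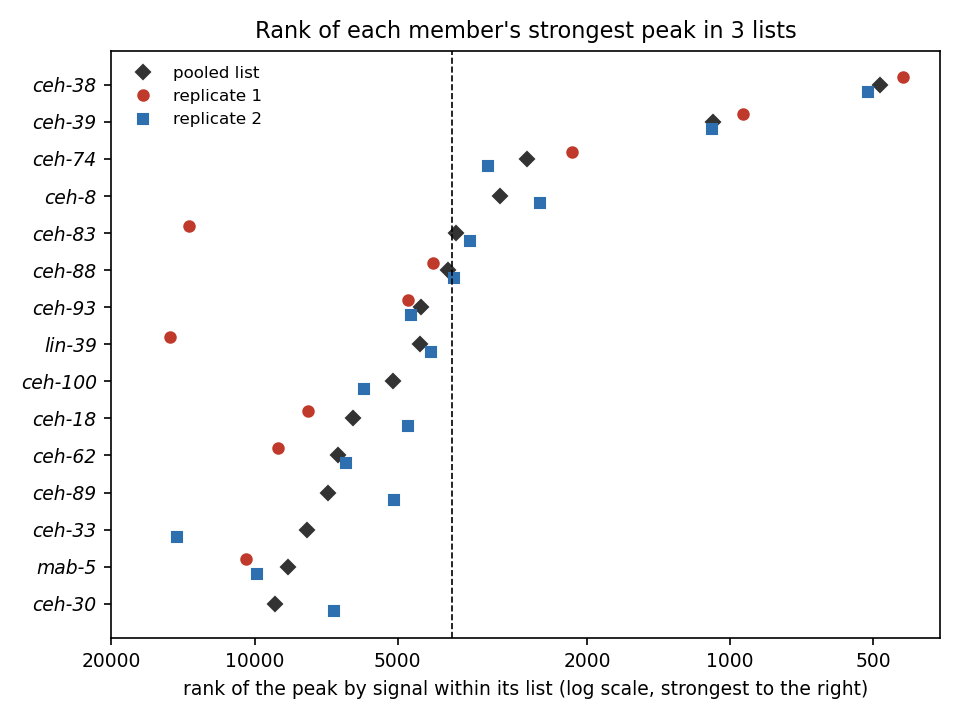
Rank by signal of the strongest pooled peak (diamonds) of each of 15 genes, the 5 with an IDR peak and the 10 strongest below it. Circles and squares give the rank of the strongest peak of replicate 1 and of replicate 2 that overlaps it. The axis is a log axis with strong peaks to the right. The dashed line is rank 3838, the IDR threshold, and a missing symbol means that no peak of that replicate overlapped. ceh-38, ceh-39 and ceh-74 lie right of the line in all 3 lists. The ceh-83 peak and the intronic lin-39 peak rank far lower in replicate 1 than in replicate 2.

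Just outside the threshold came ceh-88, ceh-93 and lin-39. The strongest ceh-88 peak lay in its 3′ UTR, 2162 bp downstream of the start, with a signal of 54.3 pooled (rank 3929), 11.4 in replicate 1 (rank 4224) and 42.2 in replicate 2 (rank 3807). The ceh-93 peak lay 157 bp upstream of the start, with a signal of 46.3 pooled (rank 4458), 10.2 in replicate 1 (rank 4757) and 32.4 in replicate 2 (rank 4687). Both genes thus ranked alike in both replicates, as ceh-83 did not. The next ones were ceh-100 (signal 39, 219 bp upstream), the POU gene ceh-18 (31.4, intron), ceh-62 (29.1, intron), ceh-89 (27.6, 279 bp upstream), the SINE-class gene ceh-33 (25.1, 5′ UTR), mab-5 (23.1, intron) and ceh-30, a Bar-class gene (21.9, intron). The peaks of ceh-100, ceh-89, ceh-33 and ceh-30 overlapped no peak of replicate 1. The authors' IDR list in the older ce10 build reached down to a signal of 41.8. With that cutoff on the ce11 pooled list, a choice made after seeing the data, ceh-88, ceh-93 and lin-39 would join, for 8 of 68 genes (11.8%, against 18.4% of all genes).

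The Hox genes had weak peaks only. lin-39 (WBGene00003024, chromosome III, 7528641 to 7536632, minus strand) had 6 pooled peaks, the most of any of the 68 genes, with signals of 18.6, 45.6, 19.3, 15.5, 15 and 16.7 from the promoter to the far end of the gene. The strongest lay in an intron 1791 bp downstream of the start (chromosome III, 7534679 to 7535002, rank 4499). It ranked 4262 in replicate 2 (signal 36.6) and 15079 in replicate 1 (signal 3.69), so replicate 2 carried it. The promoter peak, 138 bp upstream, was weaker (rank 11188) but had nearer ranks in the replicates, 9150 and 10672. Of the other lin-39 peaks, that of signal 19.3 overlapped no peak of either replicate. Those of 15.5, 15 and 16.7 overlapped a peak of replicate 2 only. mab-5 had 4 pooled peaks, all intronic, with signals of 16.3, 23.1, 21.2 and 22.1 (ranks 13596, 8506, 9429 and 8947). The peaks of signals 23.1 and 21.2 overlapped each other and the same peak of each replicate (ranks 10426 and 9875). Those of 16.3 and 22.1 overlapped a peak of replicate 2 only.

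nob-1 had 3 pooled peaks, at signals of 15.3, 12 and 16.5, none of them within 500 bp of its start. The last lay in the nob-1 3′ UTR and 439 bp upstream of php-3, which is separated from nob-1 by 236 bp, and it was the only pooled peak of php-3 (rank 13371). It overlapped no peak of replicate 1 and ranked 15592 in replicate 2. ceh-13 and egl-5 had no pooled peak. ceh-13 had 1 peak in replicate 2 alone (rank 20869, 977 bp downstream of the start), and egl-5 had 2 in replicate 1 alone, the stronger at rank 14135. Among the Hox genes with a pooled peak, the best signal ran from 16.5 at nob-1 and php-3 to 45.6 at lin-39. That each was under the IDR minimum of 56.0 follows from their having no IDR peak.

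Around the Hox genes the nearest IDR summits lay beyond the median distance of 9179 bp for all genes, and close to other genes. They were 12046 bp from the start of mab-5 and 91 bp from cyk-7, 14762 bp from egl-5 and 275 bp from kcmf-1, 14887 bp from ceh-13 and 414 bp from R13A5.7, and 15770 bp from lin-39 and 17 bp from cux-7. php-3 and nob-1 had the same nearest IDR summit, 18896 and 25656 bp from their starts and 202 bp from that of arx-3. lin-39 and ceh-13 start back to back with 19027 bp and no protein-coding gene between them. That space held 10 pooled peaks and no IDR peak. The 9991 bp upstream of mab-5 held 6 pooled peaks and the 17428 bp upstream of nob-1 held 7, again with no IDR peak. The 18964 bp upstream of egl-5 held 3, of which 1 was an IDR peak 18874 bp away, at cyk-7.

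**Figure D2:**
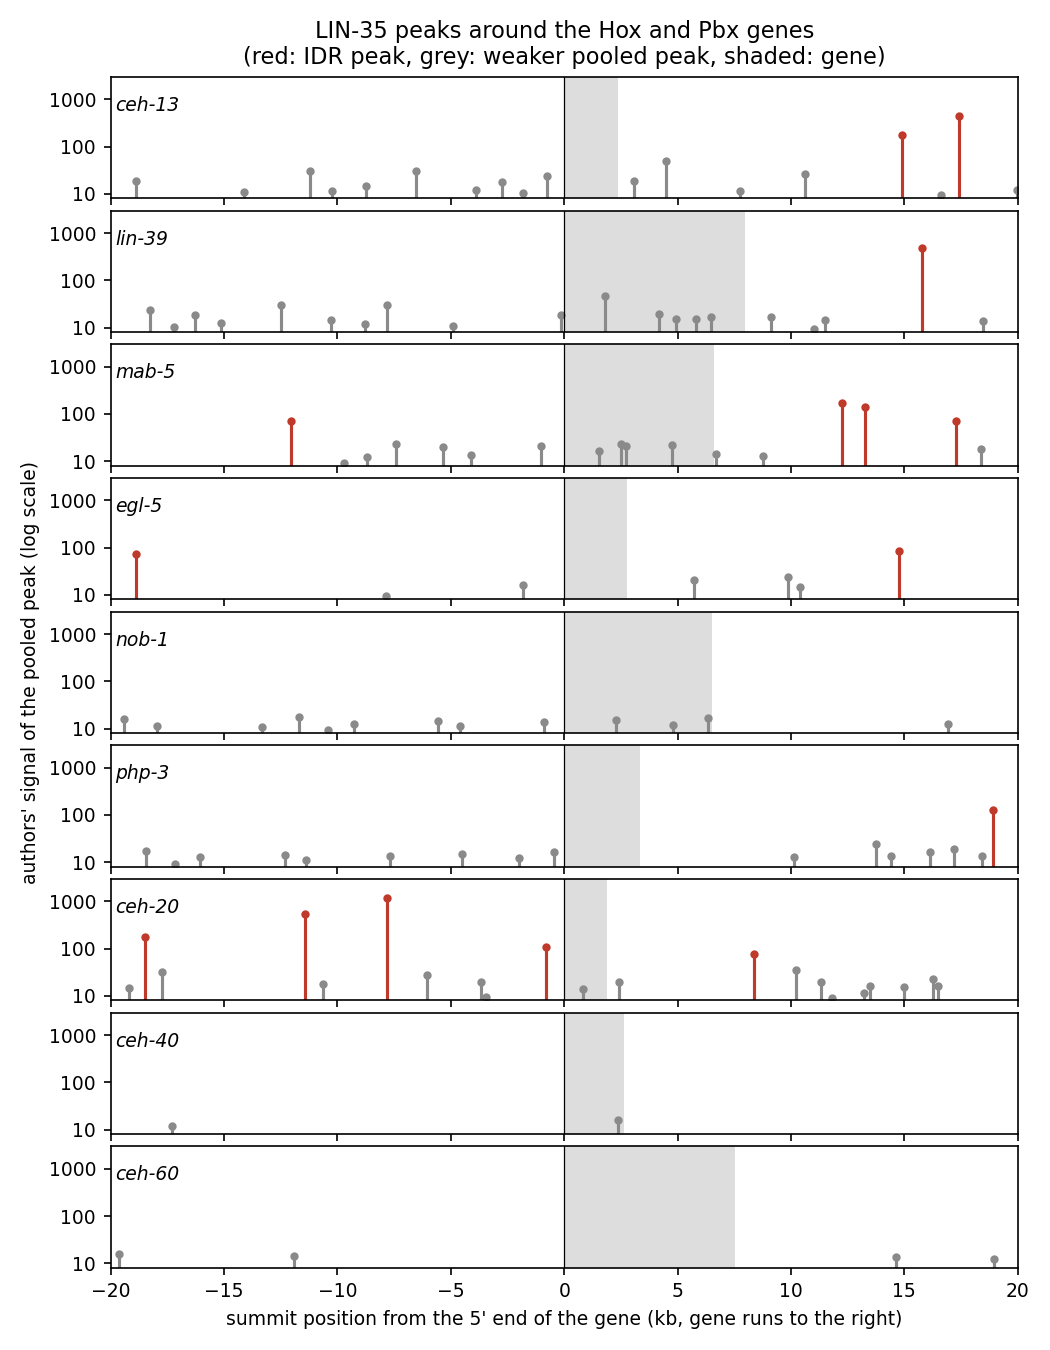
Pooled LIN-35 peaks within 20 kb of the 5′ end of the 6 Hox and 3 Pbx genes, with each gene running to the right from 0 and shaded. Stems give the authors' pooled signal on a log axis, red for IDR peaks and grey for weaker ones. No red stem falls in a shaded gene, and the nearest is 818 bp upstream of ceh-20.

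The Pbx genes encode homeodomain partners that bind DNA with Hox proteins. The nearest IDR peak to any of them was at ceh-20, the main Hox cofactor of this group (WBGene00000443, chromosome III, 6979884 to 6981785, plus strand). It lay 818 bp upstream of the start and so outside the 500 bp window (6978904 to 6979227, signal 107, rank 2225). The replicates ranked it 2052 (signal 28.4) and 2157 (signal 81.5), and ceh-20 is the protein-coding gene with the nearest start. The CHR sequence printed above is from this peak. ceh-40 and ceh-60 had no IDR summit within 20 kb; ceh-40 had a pooled peak of signal 16 and ceh-60 had peaks in replicate 1 alone (best rank 10502). Of the Meis genes, the other family of Hox partners, unc-62 had 14 pooled peaks and no IDR peak (best signal 52.4, rank 4038), and psa-3 had no pooled peak. The best unc-62 peak of replicate 1 ranked 3003 and that of replicate 2 ranked 2651, but these were different peaks, 2048 and 10528 bp downstream of the start.

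Other genes had an IDR peak beyond the window. Within 1000 bp, ceh-20, ceh-100 and ceh-92 were added, for 8 of 68 genes (11.8%, where 19% of all genes were called). The ceh-100 and ceh-92 peaks lay nearer to other starts, 69 bp from that of lips-15 and 235 bp from that of Y66D12A.7. When all of the space up to the next protein-coding gene was counted as upstream, a choice made after seeing the data, 11 of 68 genes (16.2%) had an IDR peak, against 22.7% of all genes. That space had a median of 2066 bp at the 68 genes and 937 bp at all genes. Besides ceh-20, the nearest start belonged to the homeobox gene itself at ceh-48 and ceh-58. The ceh-48 peak, at a CUT-class gene expressed in neurons, lay 2192 bp upstream (chromosome IV, 6809754 to 6810077, signal 124, rank 1938) and ranked 3166 in replicate 1 and 1750 in replicate 2. The ceh-58 peak lay 1417 bp upstream (chromosome II, 10370852 to 10371175, signal 67.5, rank 3308) and ranked 3049 in replicate 2 but 20325 in replicate 1. The strongest peak in any of these spaces, 7064 bp upstream of ceh-62 (signal 1271, rank 84), lay 194 bp from the start of the nucleoporin gene npp-19.

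By homeobox class, where 16% of all genes were called, the CUT genes had IDR peaks at 2 of 6 (ceh-38 and ceh-39). The paired-like genes had 1 of 8 (ceh-8) and the unclassed genes 2 of 20 (ceh-74 and ceh-83). No IDR peak was assigned to any of the 19 NK and other Antennapedia-like genes, 3 SINE, 2 POU and 3 Pbx genes, or to the LIM gene ceh-14. With the upstream space counted, the added genes were ceh-48 (CUT), ceh-20 (Pbx), ceh-24 and ceh-62 (NK and other Antennapedia-like), ceh-58 (unclassed) and egl-5 (Hox). The classes are small, and no class is set apart by these counts. By chromosome, IDR peaks were found at 0 of 13 genes on III, where all Hox genes lie and 25.5% of all protein-coding genes were called, and at 1 of 18 on X, where 10.6% were. On chromosomes II and V, 2 of 13 and 1 of 12 genes had one, near the 15.1% and 10.2% of all genes there. On I and IV the counts were 1 of 8 and 0 of 4, where 23.9% and 15.8% of all genes were called.

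**Figure D3:**
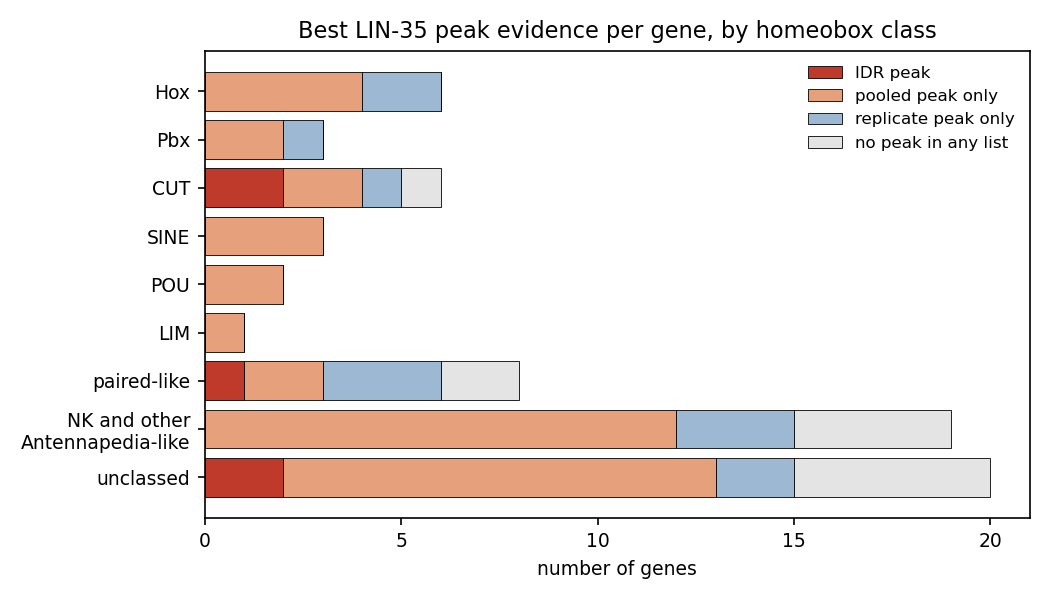
Number of ceh and Hox genes per homeobox class, split by the best peak assigned to each: an IDR peak (5 genes in all), a pooled peak below the IDR threshold (39), a peak in a replicate list only (12) or none in any list (12). The red segments of the CUT, paired-like and unclassed bars are the 5 genes with an IDR peak.

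With weak peaks counted, the shares lay above those of all genes in the pooled list and in replicate 2, and below in replicate 1. Of the 68 genes, 44 (64.7%) had at least 1 pooled peak, against 54.7% of all genes, and 29 (42.6%) had one within 500 bp of the start, against 37.1%. In replicate 1, 33 genes had a peak (48.5%, all genes 52.1%), in replicate 2 44 did (64.7%, all genes 55.1%), and 23 did in both. No peak of any list was assigned to 12 genes: ceh-7, ceh-12, ceh-17, ceh-19, ceh-28, ceh-49, ceh-54, ceh-58, ceh-76, ceh-79, ceh-87 and ceh-90. Among them, ceh-17 is a Phox2-type gene of head neurons and ceh-28 an NK-2 type gene.

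How these genes stood beside all genes differed with the rank at which the counts were made, with shares near those of all genes once weak peaks were included. Among the 1000 strongest pooled peaks, 1 of 68 genes (1.47%) had one at its start against 5.54% of all genes, and among the 10000 strongest, 8 (11.8%) did against 20.9%. Among the 20000 strongest, 22 (32.4%) did against 29.5%. Other homeobox genes, a fixed list of 33 such as unc-86, mec-3, pal-1 and vab-7, had no IDR summit at their starts and 13 pooled ones (39.4%). At the start or inside the gene, 28 of these 33 (84.8%) had a pooled peak, as did 157 of the 269 nuclear hormone receptor (nhr) genes (58.4%). Their only IDR peak lay in an intron of the LIM gene lin-11, which acts in vulval cells and neurons (chromosome I, 10252703 to 10253026, signal 70.7, rank 3186). It ranked 3165 in replicate 2 and 5292 in replicate 1. The nhr genes, another large transcription factor family, had an IDR peak at 22 of 269 (8.18%), 14 of them at the start (5.20%). Among the 20000 strongest pooled peaks, 30.3% of the other homeobox genes and 34.2% of the nhr genes had one at the start. Among all 30000, 40.1% of the nhr genes did. A share above that of all genes at those ranks was thus not particular to the ceh and Hox genes.

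**Figure D4:**
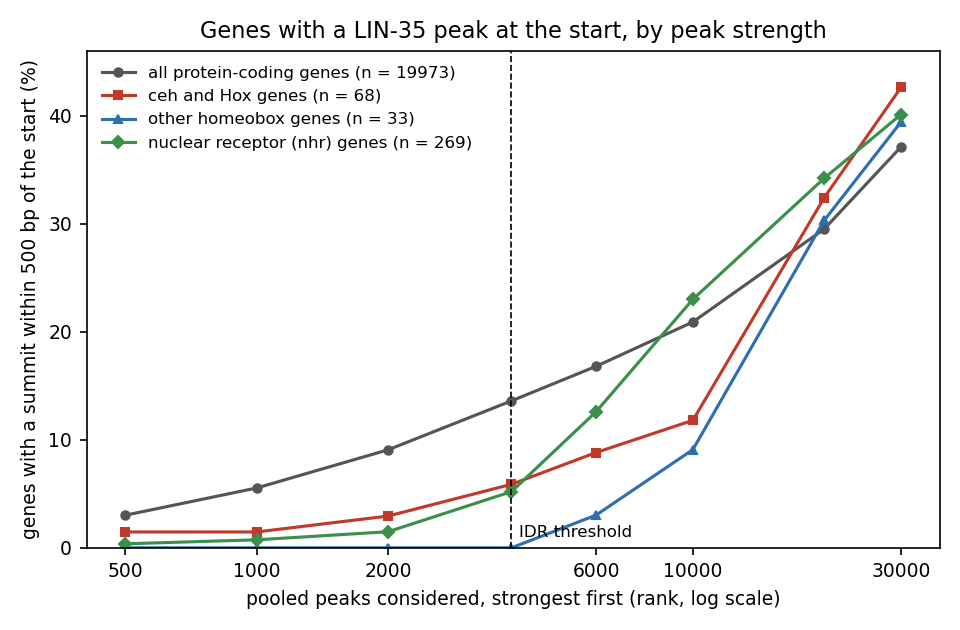
Share of genes with a pooled summit within 500 bp of the start (y axis, percent) as more pooled peaks are counted, strongest first (x axis, log scale), for 68 ceh and Hox genes, 33 other homeobox genes, 269 nhr genes and all 19973 protein-coding genes. At the IDR threshold (dashed line) the ceh and Hox genes stand at 5.88% and all genes at 13.6%, and at 30000 peaks they stand at 42.6% and 37.1%.

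The 44 genes held 80 pooled peaks, each counted once, of which 75 were below the IDR threshold with a median signal of 15 and a highest of 54.3. Of these 75, 33 (44%) lay in introns, 19 (25.3%) in coding exons, 13 (17.3%) between genes, 6 in 3′ UTRs and 4 in 5′ UTRs. Over all genes, such weak peaks lay in introns at 41.9%, in coding exons at 36.6% and between genes at 13.4%, with a median signal of 13.7. Of all IDR peaks, whether assigned to a gene or not, 74.8% lay between genes and 0.677% in coding exons. Among all pooled peaks below the IDR threshold, counted in the same way, the shares were 38.5% and 26%. The replicates seldom shared the weak peaks: 14 of 75 (18.7%) overlapped a peak of both, 46 of replicate 2 only, 4 of replicate 1 only and 11 of neither. Over all genes, 24% of such weak peaks overlapped both. Of all 3838 IDR peaks, 97.2% overlapped both and 98, the ceh-8 peak among them, overlapped replicate 2 only.

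Longer genes offer more room for a summit. The 44 genes with a pooled peak had a median length of 3527 bp and the 24 without one 1900 bp. Across the 68 genes, the number of pooled peaks and gene length had a Spearman correlation of 0.45, as a description of genes that share the same libraries. The 68 genes had a median length of 2846 bp and all genes one of 2027 bp. The part of gene length in the share of genes with weak peaks was not tested.

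The distance from a start to an IDR peak was of the same order at these genes and at all genes. The nearest IDR summit was a median of 10682 bp away, against 9179 bp for all genes, with a range from 11 bp at ceh-83 to 63422 bp at ceh-60. Within 5000 bp of the start, 18 of 68 genes (26.5%) had an IDR summit, against 36% of all genes, and within 10000 bp 30 (44.1%) did, against 52.2%.

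Of the 5 IDR peaks, the E2F motif lay within 50 bp of the summit at 2, ceh-83 and ceh-8, and within 100 bp also at ceh-39. Over all 3838 IDR peaks the shares were 13% and 18.3%. The CHR motif lay within 50 bp of none of the 5 and within 100 bp of 1, ceh-39, where 24.6% and 43.3% of all IDR peaks had it. No CHR form is contained in an E2F form, and a match or its absence describes these windows only.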

How the data were processed

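The series holds ChIP-seq peak lists of 2 replicates of 1 group, numbered as in the labels. Per the submitters' deposited file manifest, peaks were called for each replicate and for both pooled, each against a control alignment, and the IDR list was made from these lists. Which aligner and peak caller were run, and at what IDR value the list was ended, is not given here. The values used are the authors' deposited signal value per peak, kept to ranks, cutoffs and descriptions within a list. The IDR list was checked to be the 3838 strongest pooled peaks. Depth is unknown, so no interval was given. The labels call the replicates biological and say no more of their origin.

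Summits in ce11 (column 2 plus column 10, printed from 1) were assigned with Python 3.11.15, pandas 2.3.3 and numpy 2.4.6 to protein-coding genes of Ensembl release 115 on the nuclear chromosomes. A summit's position was taken from any protein-coding gene there, with coding exons first, then UTRs (5′ before 3′), then introns. Motifs were sought in the reference sequence. The assignment, overlap (at least 1 bp) and motif steps were tested on simulated data. No enrichment test was run. The genes, lists, classes and alternatives were chosen with earlier results of these data known. Named were all genes with an IDR peak, the Hox, Pbx and Meis genes, the 10 strongest genes below the threshold, other homeobox genes with an IDR peak, and genes that share an IDR peak. Genes named for peaks in upstream space or near the Hox genes, and those without peaks, were named after their values were seen. ceh-44, fixed for the CUT class, is not among the names of the annotation. The ce10 IDR list gave a signal cutoff, and the other ce10 lists were not used.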

Additional observations from a re-analysis of the deposited data

How the results depend on the processing

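The count of 5 homeobox genes with an IDR peak stayed at 5 with a window of 250 bp or the 5′ end of any transcript, and was 4 when a peak counted for the nearest start only. It was 8 within 1000 bp, 8 with the ce10 signal cutoff, 11 with the upstream intergenic space, 2 in the top 1919 peaks of the IDR list (ceh-38 and ceh-39) and 2 for summits inside the gene only. Leaving out a replicate, by taking the strongest peaks of the other alone, gave 3 to 6. The count of 4 at starts was 7 within 1000 bp and 2 in the top 1919 peaks, and leaving out a replicate gave 3 to 4. The 5 IDR peaks became 2 in the top 1919 peaks. The Hox count of 0 was 1 (lin-39) with the ce10 cutoff and 0 under the other settings run for it. The upstream intergenic space was not among those settings, but the Hox gene egl-5 was 1 of the 11 genes it gave. The other homeobox count of 1 was 0 in the top 1919 peaks, 2 with the ce10 cutoff and 2 when either replicate was left out. The CHR count of 0 was 1 within 100 bp. The settings differ in the number of peaks or bases they admit, and the cause of these shifts was not tested. The 44 genes with a pooled peak became 43 to 49. Without replicate 2, the ceh-83 rank of 3775 became 13734, and at ceh-8 no replicate 1 peak overlapped the IDR peak. No paired analysis was possible because there was 1 group. With 2 replicates and no read counts, weak peaks that the replicates do not share cannot be told from background.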
